A study of Mus musculus with 6 samples.

Results

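The genes described here are 7 complement receptors and regulators, taken by name from a table of 55298 gene identifiers. They are C3ar1 and C5ar1, the receptors of the anaphylatoxins C3a and C5a, the soluble regulators Cfi (complement factor I) and Cfp (properdin), and the membrane regulators Cd55, Cd59a and Cr1l. Of these 7 genes, 6 were expressed highly enough to be tested, and Cfi was not. The samples were brain cells captured on magnetic beads through O4, a surface antigen of late oligodendrocyte precursors and oligodendrocytes, and RNA was taken without culture. The EAE group held 3 pools of RNA from 2 mice each, immunised with MOG 35-55, a myelin oligodendrocyte glycoprotein peptide that induces experimental autoimmune encephalomyelitis (EAE), a model of multiple sclerosis. The OVA group held 3 samples of ovalbumin-treated mice, of which replicates 1 and 3 were 1 mouse each and replicate 2 was a pool of 2 mice. All mice had the background labelled c56Bl/6j and were killed when EAE was at its peak. No transgene is named, and no age, sex or batch is stated. The SDs thus mix single mice with averages of 2. The p-values set differences against the spread between these samples, which is not the spread between single mice.

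Complement is a cascade of plasma proteases that ends in opsonisation of a surface by fragments of C3 and C4 and in a lytic membrane pore. Cleavage of C3 and C5 releases small fragments, the anaphylatoxins, which act through G protein-coupled receptors on microglia, macrophages and neutrophils. Host cells carry membrane proteins that stop the cascade on their own surface, and rat oligodendrocytes are known to be sensitive to lysis by complement. Set against OVA, the EAE samples show which of these receptors and regulators differ in the captured cells when disease is at its height.

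Among the 7 genes, the one that changed past the threshold was the C3a receptor C3ar1, which rose 1.85-fold in EAE. The C5a receptor C5ar1 was 1.29-fold and properdin 1.17-fold as high in EAE as in OVA, and neither passed the test. Of the membrane regulators, Cr1l lay slightly lower in EAE, at 0.85-fold, and did not pass. Cd55 was 0.897-fold and Cd59a 0.938-fold as high in EAE as in OVA, and neither passed. Their differences changed sign without OVA replicate 3, so no direction can be read for them. Values are regularised logarithms (rlog) on the log2 scale, on which a difference of 1 is a 2-fold difference. A gene passes at an adjusted p under 0.05 in a limma linear model fitted to all 18161 tested genes. Of those genes, 2.38% passed in either direction, 1.72% with higher values in EAE and 0.666% with lower values. Of the 6 tested complement genes 1 was higher and 0 were lower at that threshold, and at an unadjusted p under 0.05 limma gave 1 higher (C3ar1) and 1 lower (Cr1l), where 9.17% and 7.15% of all tested genes were. The groups did not overlap for 2 of the 6, C3ar1 and Cr1l, as for 22.8% of all tested genes. Their median difference was 0.07, against -0.0024 over all tested genes. In bulk RNA, fewer cells of a type and less RNA per cell cannot be told apart.

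**Figure D1:**
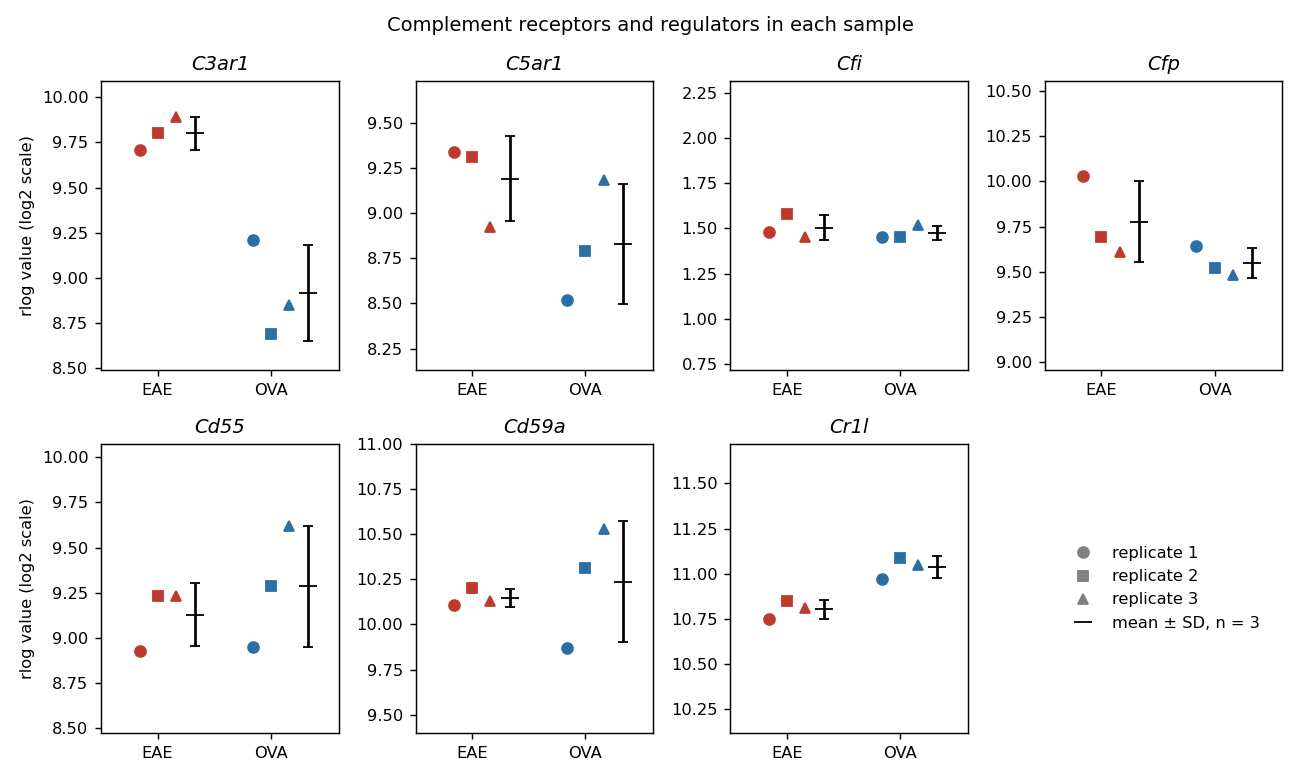
Each panel shows 1 gene, with the rlog value (log2 scale) of every sample, EAE samples left of OVA samples, and the mean ± SD of 3 samples in black. All panels span the same height of log2 units. The EAE and OVA values are separate for C3ar1 (higher in EAE) and Cr1l (lower in EAE) and overlap for the other genes.

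Markers of other cell types differed between the samples and are given before the single genes. Of 10 markers of mature oligodendrocytes all were expressed, and their summed level lay between 20.23 and 20.37 in the EAE samples and between 19.86 and 20.29 in the OVA samples, as log2 of the sum. Transcripts of myeloid, vascular and astrocyte markers were present in all samples as well, so each value is that of a mixed preparation. Of 10 T cell markers 6 rose, 0 fell and none was at 0. All 10 were higher in every EAE sample than in any OVA sample, as were 12.1% of all tested genes. The median difference of the T cell markers was 0.62. Their summed level was low, at 9.28 to 9.48 in EAE and 8.60 to 8.85 in OVA. Of 10 astrocyte markers 5 fell and 1 rose, Gfap, an intermediate filament protein of reactive astrocytes. The median difference of the astrocyte markers was -0.73, none was at 0, and their summed level was 15.98 to 16.30 in EAE and 16.75 to 17.09 in OVA. Of 7 markers of oligodendrocyte precursors 1 fell, Ptprz1, a receptor phosphatase, and 0 rose. Of the 7, 4 lay above 0 and 3 below, with a median of 0.30. At an unadjusted limma p under 0.05, 2 of them were higher and 2 lower. Of the pericyte, ependymal and neuron markers 0 passed the limma threshold. At an unadjusted p under 0.05, 2 pericyte markers were lower, and 3 ependymal markers and 1 neuron marker were higher. The median differences of these lists were -0.39, 0.50 and 0.11. The part of these cell types in the values of the 7 complement genes was not tested. OVA replicate 3 stood apart. The summed level of 10 neutrophil markers was 12.94 to 13.66 in the EAE samples, 13.42 and 13.80 in OVA replicates 1 and 2, and 15.83 in OVA replicate 3. That of 6 B cell markers was 10.74 to 11.14 in the EAE samples, 10.81 and 10.67 in OVA replicates 1 and 2, and 12.21 in OVA replicate 3. None of the markers of either list was at 0 in all samples, and 0 of the 10 neutrophil and 0 of the 6 B cell markers passed the limma threshold, with 3 neutrophil markers (1 higher, 2 lower) and 0 B cell markers at an unadjusted p under 0.05. The samples also differed in number of mice, and the depth of sequencing is unknown.

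**Figure D2:**
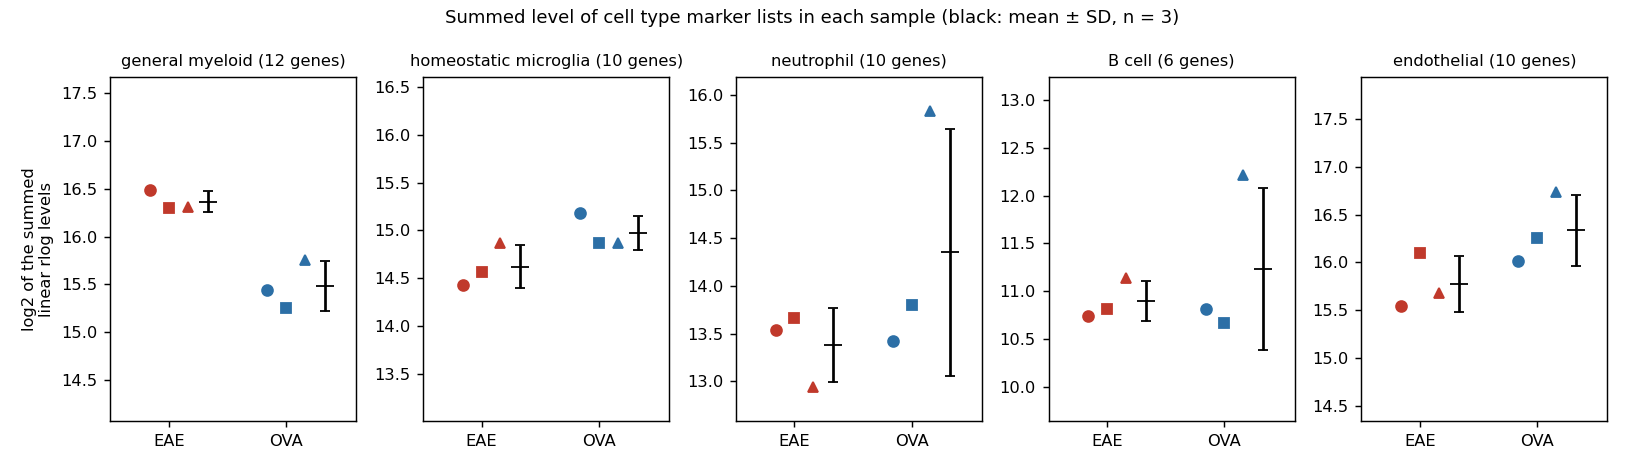
Each panel shows the summed level of 1 list of cell type markers in every sample, as log2 of the sum of the linear rlog levels, with circles, squares and triangles for replicates 1, 2 and 3, EAE left of OVA, and the mean ± SD of 3 samples in black. OVA replicate 3 is the highest sample for the neutrophil list (15.83), the B cell list (12.21) and the endothelial list (16.74), and the EAE samples are the highest for the general myeloid list.

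C3ar1 (ENSMUSG00000040552.8) lies on chromosome 6 from 122847138 to 122856161, on the minus strand of GRCm38. Its product binds C3a, the fragment that is cut from C3, and is found on microglia, macrophages and other myeloid cells. The 3 EAE samples stood at 9.71, 9.80 and 9.89 and the OVA samples at 9.21, 8.69 and 8.85. Every EAE sample was above every OVA sample, which was so in that direction for 12.1% of all tested genes. The mean was 9.80 ± 0.09 in EAE and 8.91 ± 0.27 in OVA (SD, n = 3 each), a rise of 0.89 ± 0.14 (SE; limma adjusted p = 0.0234). The 95% interval of the rise was 0.57 to 1.21, or 1.48-fold to 2.31-fold. OVA replicate 1, a single mouse, held the OVA value nearest to EAE. The adjusted p missed the threshold without EAE replicate 1 (0.0793), EAE replicate 2 (0.11), EAE replicate 3 (0.0674) or OVA replicate 2 (0.0898), while the difference itself stayed between 0.774 and 1.04 with any 1 sample left out.

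C5ar1 (ENSMUSG00000049130.6; chromosome 7, 16246743 to 16259540, minus strand) encodes the receptor of C5a, a chemoattractant receptor of neutrophils and other myeloid cells. It stood at 9.34, 9.31 and 8.92 in the EAE samples, against 8.52, 8.79 and 9.18 in the OVA samples. The groups overlapped, because OVA replicate 3 lay above EAE replicate 3. The difference was 0.36 ± 0.19 (SE; limma adjusted p = 0.388) and its 95% interval ran from -0.07 to 0.80. Single samples moved it: with 1 sample left out the difference ran from 0.208 without OVA replicate 1 (limma adjusted p = 0.551) to 0.537 without OVA replicate 3 (limma adjusted p = 0.0803), and it passed in none of these fits. OVA replicate 3 is the sample with the raised neutrophil markers, for example S100a9, a granulocyte calcium-binding protein, at 10.44 to 11.29 in EAE and at 14.42 in OVA replicate 3. The neutrophil chemokine receptor Cxcr2 stood at 8.73, 9.04 and 7.89 in EAE and at 7.88, 8.27 and 8.93 in OVA. Like C5ar1, Cxcr2 was lowest in replicate 3 among the EAE samples and highest in replicate 3 among the OVA samples. Another receptor of the list, Csf3r, was not highest in OVA replicate 3, at 11.56, 11.34 and 11.54 in OVA. Of the 10 neutrophil markers, 2 had a difference above 0, as C5ar1 had, and 8 lay below 0 (median -0.92). The part of these markers in the C5ar1 values was not tested.

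The difference in means was larger for C3ar1 than for C5ar1, which did not pass, and the samples do not separate the receptors. C3ar1 minus C5ar1 within a sample was 0.37, 0.49 and 0.97 in EAE and 0.69, -0.10 and -0.33 in OVA, a difference of 0.53 (two-sided exact permutation p = 0.3, n = 3 each). OVA replicate 1 lay inside the EAE range. With 3 samples against 3, the smallest p that this test can give is 0.1. With 1 sample left out the difference ran from 0.318 without OVA replicate 3 to 0.828 without OVA replicate 1, so its size rests on single samples.

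The genes whose samples followed C3ar1 most closely were C1qa, Icos and C1qc. Likeness was the Euclidean distance over the 6 samples between values minus each gene's mean, and was 0.24, 0.30 and 0.33 in that order. The search covered 14774 tested protein-coding genes, without predicted gene models (Gm or Rik names) and with the highest-mean identifier of each symbol. C1qa and C1qc encode chains of C1q, the recognition protein of the classical pathway, which microglia and macrophages make in the brain, and Icos encodes a costimulatory receptor of T cells and is in the T cell list that was higher in EAE. C1qa lay between 12.75 and 12.97 in EAE and between 11.92 and 12.24 in OVA. Like C3ar1, C1qa was highest in EAE replicate 3 and, among the OVA samples, in OVA replicate 1. Nearness over 6 samples of 2 groups is a description and carries no test.

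Markers shared by myeloid cells were also higher in EAE. Of 12 general myeloid markers, 5 rose, all 12 lay above 0, the median difference was 0.67 and none was at 0. Their summed level was 16.30 to 16.49 in the EAE samples and 15.25 to 15.76 in the OVA samples. C3ar1 minus the mean of these 12 markers was -2.21, -1.97 and -1.85 in EAE and -1.75, -2.15 and -2.50 in OVA, which overlapped and differed by 0.12 (two-sided exact permutation p = 0.7). Homeostatic microglia markers, 10 genes of resident microglia at rest, went the other way. Their median was -0.58 with every one negative, 2 fell, none was at 0, and the summed level was 14.43 to 14.87 in EAE and 14.87 to 15.18 in OVA. The list of infiltrating monocyte and macrophage markers had 12 genes, of which 3 rose and none was at 0. Their differences were all positive with a median of 0.84, and the summed level was 15.16 to 15.73 in EAE and 14.49 to 15.23 in OVA. Fn1 weighs most in that sum, at 14.30 to 14.90 in EAE and 14.10 to 14.62 in OVA, which overlapped. Vcan of this list is also in the list of oligodendrocyte precursors. The part of these cell types in the C3ar1 rise was not tested.

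Relative to the same 12 myeloid markers, C5ar1 and Cfp were lower in every EAE sample than in any OVA sample, but so were 88.9% of all tested genes. The mean of the markers was itself higher by 0.77 in EAE, so that a gene at the same level in both groups lies lower on this measure, and nothing particular to C5ar1 or Cfp can be read from it. For C5ar1 the value was -2.58, -2.46 and -2.82 in EAE and -2.44, -2.04 and -2.17 in OVA, a difference of -0.40. For Cfp it was -1.90, -2.08 and -2.14 in EAE and -1.32, -1.32 and -1.88 in OVA, a difference of -0.54. Both had a two-sided exact permutation p of 0.1, the smallest that the test can give with 3 samples a group. EAE replicate 2 and OVA replicate 1 for C5ar1, and EAE replicate 1 and OVA replicate 3 for Cfp, all but touched.

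**Figure D3:**
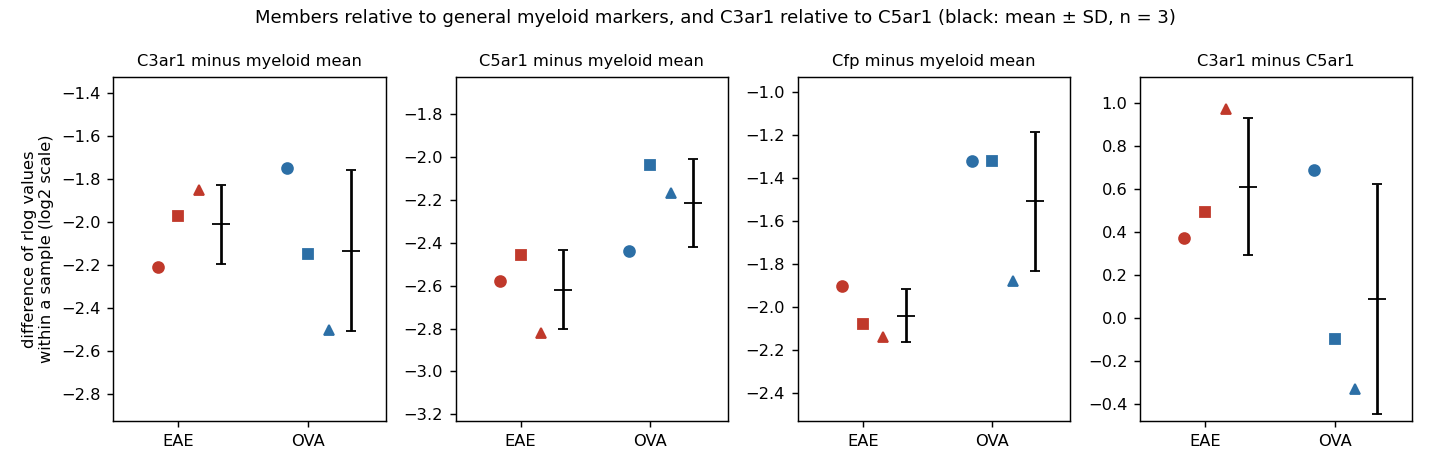
The first 3 panels show C3ar1, C5ar1 and Cfp minus the mean of 12 general myeloid markers within each sample, and the last shows C3ar1 minus C5ar1, all on the log2 scale, with circles, squares and triangles for replicates 1, 2 and 3 and the mean ± SD of 3 samples in black. The EAE and OVA samples overlap for C3ar1 and for C3ar1 minus C5ar1, and EAE lies lower for C5ar1 and Cfp, as it does for 88.9% of all tested genes on this measure.

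The promoters of the 3 genes that are typical of myeloid cells are shown because these are the members whose means were higher in EAE in the tested set. They run from 250 bases before to 50 bases after the RefSeq start (GRCm38.p6, minus strand in each case, 5′ to 3′ along the gene). The table held promoters of 6 of the 7 genes. Capitals mark matches on either strand to GAGGAA or AGGAAG, which are overlapping parts of the motif of the myeloid transcription factor PU.1. AGGAAG is shared by transcription factors of the ETS family, and no window held both parts, so none held them joined. The STAT element TTCNNNGAA was searched in the same way and had no match in any of the 6.
C3ar1, chr6:122856108-122856407: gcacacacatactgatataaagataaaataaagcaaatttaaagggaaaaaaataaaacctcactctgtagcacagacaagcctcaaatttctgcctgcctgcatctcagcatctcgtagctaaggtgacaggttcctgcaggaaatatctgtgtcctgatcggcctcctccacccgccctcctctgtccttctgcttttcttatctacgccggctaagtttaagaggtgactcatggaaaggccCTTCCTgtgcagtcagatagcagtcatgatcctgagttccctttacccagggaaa
C5ar1, chr7:16259289-16259588: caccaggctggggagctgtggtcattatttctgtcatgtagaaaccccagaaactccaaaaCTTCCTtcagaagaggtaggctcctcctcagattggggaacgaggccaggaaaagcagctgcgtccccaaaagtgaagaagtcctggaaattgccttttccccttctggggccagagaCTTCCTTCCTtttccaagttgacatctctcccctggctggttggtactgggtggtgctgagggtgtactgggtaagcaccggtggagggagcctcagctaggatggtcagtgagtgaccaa
Cfp, chrX:20931506-20931805: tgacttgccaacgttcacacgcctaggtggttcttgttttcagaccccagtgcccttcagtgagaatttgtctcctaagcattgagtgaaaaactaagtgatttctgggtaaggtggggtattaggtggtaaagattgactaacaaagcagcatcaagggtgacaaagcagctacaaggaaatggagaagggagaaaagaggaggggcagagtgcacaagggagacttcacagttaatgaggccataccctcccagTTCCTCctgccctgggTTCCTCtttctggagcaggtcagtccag
AGGAAG occurred 1 time in the C3ar1 window, at the start, and 3 times in the C5ar1 window. GAGGAA occurred 2 times in the Cfp window, both after the start. The windows of the other members in the table held 1 match, GAGGAA in Cd59a, whose mean was lower in EAE, at position -62 from the start. These letters are common, as AGGAAG was found in 35.4% and GAGGAA in 28.3% of 32851 promoters of the same length, and TTCNNNGAA in 8.3%. A match is a description of the sequence and does not show binding.

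Properdin is the soluble regulator that stabilises the convertase of the alternative pathway and so promotes the cascade, and it is made by monocytes, neutrophils and T cells. Its gene Cfp (ENSMUSG00000001128.7; chromosome X, 20925454 to 20931555, minus strand) stood at 10.03, 9.69 and 9.61 in the EAE samples and at 9.64, 9.52 and 9.48 in the OVA samples. OVA replicate 1 lay above EAE replicate 3, so the groups overlapped. The difference was 0.23 ± 0.12 (SE; limma adjusted p = 0.397), with a 95% interval from -0.05 to 0.51. It was 0.104 without EAE replicate 1, the highest sample.

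Cfi (ENSMUSG00000058952.12; chromosome 3, 129835884 to 129875332, plus strand) encodes the protease that inactivates C3b and C4b and is made mainly by the liver. It stood at 1.48, 1.58 and 1.45 in EAE and at 1.45, 1.45 and 1.52 in OVA. The mean was under the minimum of 3 for testing, the groups overlapped, and values this low are drawn strongly towards the gene's mean by the rlog. A change of Cfi was therefore not detectable in these data.

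Cr1l encodes Crry, a rodent membrane protein that both dissociates C3 convertases and serves as a cofactor for factor I, and is broadly expressed. The gene (ENSMUSG00000016481.15; chromosome 1, 195097382 to 195131586, minus strand) stood at 10.75, 10.85 and 10.81 in the EAE samples and at 10.97, 11.09 and 11.05 in the OVA samples. Every EAE sample was below every OVA sample, as was so in that direction for 10.8% of all tested genes. The groups were 10.80 ± 0.05 in EAE and 11.04 ± 0.06 in OVA (SD, n = 3 each), a difference of -0.23 ± 0.07 (SE). Its limma adjusted p was 0.147 and its unadjusted p 0.0106. The difference was small and steady, between -0.269 and -0.207 with any 1 sample left out, and passed in none of these (limma adjusted p from 0.119 to 0.498). With sample quality weights in limma it was -0.262 and passed (adjusted p = 0.0334). Under those weights 433 genes of the series were lower in EAE past the threshold, against 121 without them. With weights by number of mice the Cr1l difference was -0.247 and did not pass (limma adjusted p = 0.0959).

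Cd55, decay-accelerating factor, dissociates the convertases on the cell surface. The gene (ENSMUSG00000026399.12; chromosome 1, 130439027 to 130462744, minus strand) stood at 8.93, 9.23 and 9.23 in EAE and at 8.95, 9.29 and 9.62 in OVA. The groups overlapped because OVA replicate 1 lay inside the EAE range, while OVA replicates 2 and 3 lay above every EAE sample. The difference was -0.16 ± 0.17 (SE; limma adjusted p = 0.699; 95% interval -0.56 to 0.24), and without OVA replicate 3 it was 0.0069, so no direction can be read from it.

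Cd59a, the main mouse form of CD59, blocks assembly of the membrane pore. The gene (ENSMUSG00000032679.12; chromosome 2, 104095801 to 104115354, plus strand) stood at 10.11, 10.20 and 10.13 in EAE and at 9.87, 10.31 and 10.53 in OVA. The EAE samples lay within 0.09 of each other and inside the OVA range of 0.66. The difference was -0.09 ± 0.16 (SE; limma adjusted p = 0.817; 95% interval -0.45 to 0.27), and without OVA replicate 3 it was 0.0556, again with no direction. Among the OVA samples both Cd55 and Cd59a were lowest in replicate 1 and highest in replicate 3. So were the summed levels of 6 of the 13 marker lists, namely the infiltrating monocyte, neutrophil, T cell, endothelial, pericyte and ependymal lists. Of these the 10 endothelial markers stood at 15.54, 16.10 and 15.68 in EAE and 16.01, 16.26 and 16.74 in OVA. Of the 10 all lay below 0 (median -0.56), 0 passed the limma threshold and 6 had an unadjusted p under 0.05, none was at 0, and the part of any of the 6 lists in the Cd55 and Cd59a values was not tested.

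**Figure D4:**
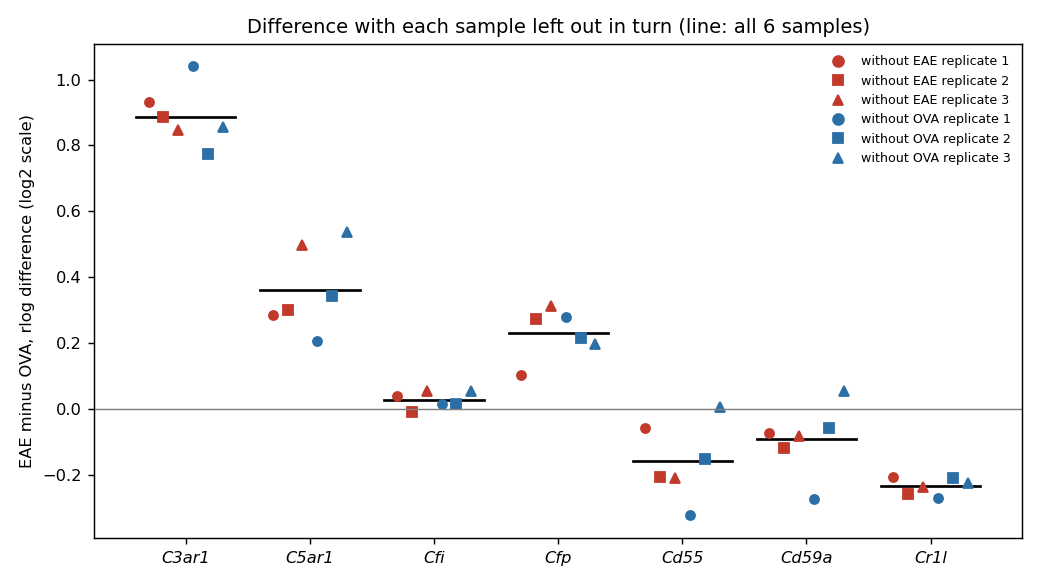
The EAE minus OVA difference (log2 scale) of each of the 7 genes is drawn with all 6 samples (black line) and with each sample left out in turn (red for an EAE sample, blue for an OVA sample left out). C3ar1 stays between 0.774 and 1.04 and Cr1l between -0.269 and -0.207, while Cd55, Cd59a and Cfi cross 0.

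Some regulators have close gene copies, and the treatment of reads that fit both copies is not stated in the sources. Of the 50-base words in the annotated transcripts, 8.0% of those of Cd55 also occur in another gene, namely Cd55b. The share was 3.87% for Cd59a, with Cd59b, and 4.34% for Cr1l, nearly all with the pseudogene Crry-ps, so these values carry that uncertainty. C3ar1, C5ar1, Cfi and Cfp shared 0 such words with another gene. Cd55b was close to 0, at 0.20 to 0.22 in EAE and 0.20 to 0.26 in OVA, and Cd59b stood at 5.80 to 6.06 in EAE and 5.59 to 5.95 in OVA. The exons of Cd55 overlap those of the antisense gene Gm16083 over 102 bases, whose reads are told apart from those of Cd55 if strand was used in counting.

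Levels were set against each other per kilobase of exon, as rlog minus log2 of the exon length in kilobases. The length was that of all annotated exons of a gene merged, 10349 bases for Cr1l and 1811 for Cd59a. The order depends on this choice, as Cr1l had the highest rlog of the 7 without the division, at 10.80 in EAE and 11.04 in OVA. Per kilobase the level of Cd59a was 9.29 in EAE and 9.38 in OVA, the highest of the 7 in both groups, followed by Cfp at 8.98 in EAE and 8.75 in OVA. C5ar1 stood at 7.83 in EAE and 7.47 in OVA, C3ar1 at 7.70 in EAE and 6.81 in OVA, and Cr1l at 7.43 in EAE and 7.67 in OVA. Cd55 stood at 6.85 in EAE and 7.01 in OVA, and Cfi was the lowest at 0.35 in EAE and 0.32 in OVA. In EAE the neighbours C5ar1 and C3ar1 were closer than the SD of C5ar1 (0.24). In OVA C3ar1 was the lowest of the 6 tested genes, closer to Cd55 than the SD of either.

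Of 47 other complement genes, 34 were tested, 7 rose, 0 fell and 27 did not pass the limma threshold. At an unadjusted p under 0.05 limma gave 12 higher and 1 lower. Over all tested genes 1.72% rose and 0.666% fell, and 9.17% and 7.15% were higher and lower at an unadjusted p under 0.05. The median difference of the 34 was 0.16, against -0.0024 over all tested genes. Of the 7, 6 were components, namely C3, C4b, Cfb and the C1q chains. The seventh was Itgax, an integrin chain that forms complement receptor 4. Leaving out EAE replicate 1 or 2 reduced the 7 to 2 or 1, and leaving out OVA replicate 1 or 2 to 4 or 1.

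Of the precursors of the anaphylatoxins, C3 rose and Hc did not pass, and whether they differ from each other was not tested. C3, which yields C3a, stood at 13.37, 13.14 and 12.60 in EAE and at 9.66, 9.84 and 11.52 in OVA, and rose by 2.70 ± 0.47 (SE; limma adjusted p = 0.0316). OVA replicate 3 lay far above the other OVA samples. Hc, which encodes C5, stood at 7.39, 7.60 and 7.25 in EAE and at 7.17, 7.14 and 7.41 in OVA, which overlapped, with a difference of 0.17 ± 0.13 (limma adjusted p = 0.566). Of the other components, C4b rose by 2.15 ± 0.19 and Cfb, the protease of the alternative pathway convertase, by 0.96 ± 0.17 (limma adjusted p = 0.00531 and 0.0334). C1qa, C1qb and C1qc rose by 0.80, 0.77 and 0.80 (limma adjusted p from 0.0153 to 0.0204). Cfd, the protease that activates factor B, was listed at 0 in all samples, as were C8b, Mbl1, Mbl2 and Colec10.

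The other receptors comprise the integrin chains, C5ar2 and Cr2. Itgax stood at 11.09, 10.47 and 10.27 in EAE and at 8.45, 8.46 and 9.06 in OVA, and rose 3.87-fold (1.95 ± 0.24; limma adjusted p = 0.0118). The groups of Itgax did not overlap. Itgb2, the shared beta chain, differed by 1.34 ± 0.30 (limma adjusted p = 0.0684) and Itgam, the alpha chain of complement receptor 3, by 0.45 ± 0.15 (0.177). Both were higher in every EAE sample than in any OVA sample, as were 12.1% of all tested genes, and neither passed. C5ar2, the alternative C5a receptor, differed by -0.07 ± 0.10 and Cr2, a receptor for C3 fragments on B cells, by -0.04 ± 0.13 (limma adjusted p = 0.792 and 0.912). Vsig4, a macrophage receptor for C3b, was too low to be tested, at 0.26 to 0.32 in EAE and 0.26 to 0.29 in OVA.

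Of 14 other regulators 10 were tested and limma called 0. At an unadjusted p under 0.05, 2 were higher and 1 lower, as were 9.17% and 7.15% of all tested genes. Lower was Clu, clusterin, an inhibitor of the membrane pore, at -0.32 ± 0.11 (SE; limma adjusted p = 0.217). Higher were Serping1, the C1 inhibitor, at 0.61 ± 0.24, and Cpn1, a carboxypeptidase that trims the anaphylatoxins, at 0.38 ± 0.12 (limma adjusted p = 0.27 and 0.159). The membrane cofactor Cd46 differed by -0.30 ± 0.13 and the pore inhibitor Vtn, vitronectin, by -0.37 ± 0.26. Clu and Cd46 were lower in every EAE sample than in any OVA sample, as were 10.8% of all tested genes. Cpn1 was higher in every EAE sample, as were 12.1%, while the groups of Serping1 overlapped. Susd4, Csmd1, Csmd2, Csmd3 and Cd59b lay between -0.06 and 0.20. C4bp and Cd55b were too low to be tested, and Cpn2 and Cpb2 were listed at 0 in all samples.

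**Figure D5:**
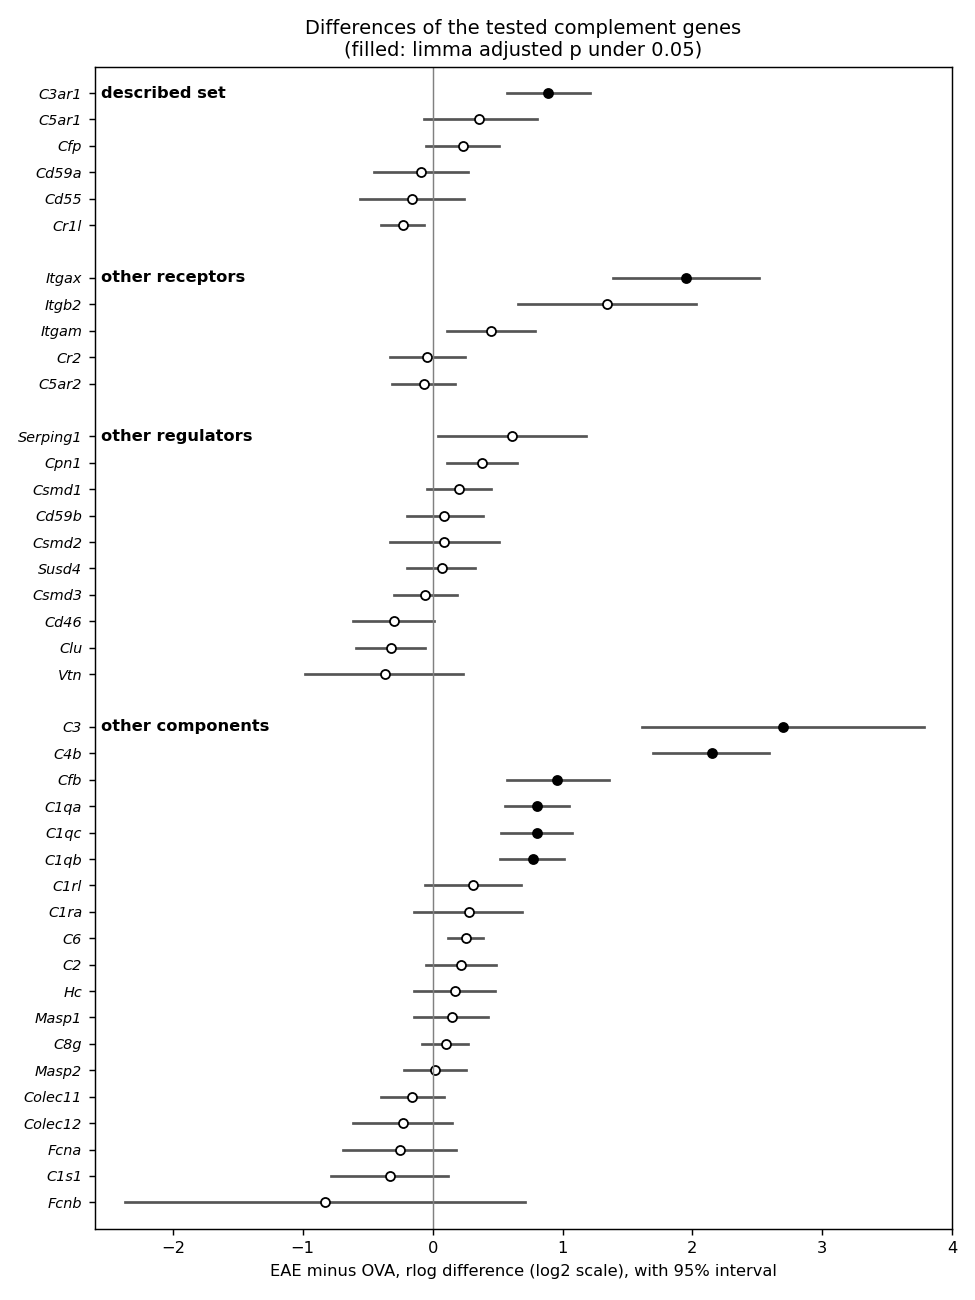
EAE minus OVA differences (log2 scale) of the 6 tested members and the 34 other tested complement genes, with 95% intervals from limma, grouped by role, with filled points past an adjusted p of 0.05. C3ar1, Itgax, C3, C4b, Cfb, C1qa, C1qb and C1qc are filled, all on the side of higher values in EAE.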

How the data were processed

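RNA of O4-captured brain cells from 3 EAE and 3 OVA samples was sequenced from poly(A) libraries that keep strand, per the labels' protocols. Tools listed in the submitters' processing notes, without roles, are DESeq2 1.24.0, Subread 1.6.1, STAR 2.6.1c, cutadapt 1.18 and bcl2fastq 2.17, with the build GRCm38. The deposited table holds rlog values made by the authors, on the log2 scale, which shrink weakly expressed genes towards their mean and so understate their differences. It holds no counts, so depth is unknown and no detection floor can be given. No source used here states whether the rlog used the groups.

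Of 55298 identifiers 99.7% matched a symbol, and where several share a symbol the one with the highest mean was used. Genes with a mean of at least 3 (18161) were fitted with limma 3.58.1 in R 4.3.3 (empirical Bayes with intensity trend, two-sided, Benjamini-Hochberg over all tested genes, threshold 0.05). The code of the fit was also run on simulated data with independent errors and the same spread in both groups. That run checks the code, and not whether these samples meet those assumptions. Positions are GENCODE M21 on GRCm38, 1-based, and promoters are from RefSeq. Errors after differences are SE, and errors after means are SD. Replicate numbers follow the deposited order and pair nothing.

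The members, gene lists, marker lists and motifs were chosen with earlier results of these data known. Named are all members, the other complement genes past the threshold, all other tested receptors and regulators, and C3 and Hc. Also named are the 3 protein-coding genes nearest to a member past the threshold, with Gm and Rik names left out of the search. Other genes named beside them as marker examples or as untested were chosen after their values were seen. A further gene of the complement lists is not reported here and enters none of their counts. Alternatives were other filters on low values, no trend, quality weights, weights by number of mice, median-centred samples and each sample left out.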

Additional observations from a re-analysis of the deposited data

How the results depend on the processing

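No paired analysis was possible because the replicate numbers follow the deposited order and the labels pair no EAE sample with an OVA sample. Counts over all genes depended on single samples: 312 genes were higher and 121 lower in EAE, with ranges of 24 to 850 and of 1 to 346 when 1 sample was left out, and 1035 and 433 with quality weights. For the members the count of higher genes was 0 to 1 and that of lower genes 0 with 1 sample left out, and quality weights gave 1 lower gene, Cr1l, at -0.262. The other complement genes past the threshold numbered 1 to 10 higher and 0 lower with 1 sample left out, against 7 and 0. With 1 sample left out, the difference was 0.774 to 1.04 for C3ar1, with adjusted p from 0.0185 to 0.11, and -0.323 to 0.0069 for Cd55 and -0.274 to 0.0556 for Cd59a. C3ar1 relative to the myeloid markers ranged from -0.0622 to 0.315. The reversals of Cd55 and Cd59a came without OVA replicate 3. C3ar1 passed under every filter, without the trend, with both kinds of weights and after median-centring, at adjusted p from 0.00198 to 0.0275. The leave-one-out fits of the within-sample measures were added after the data were seen. Depth is unknown, so what low counts hide for Cfi cannot be stated.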
